A study of Homo sapiens with 18 samples.

Results

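The comparison asked which expression changes accompanied platinum resistance that arose in patients and not resistance selected in culture. It used RNA-seq of 18 libraries, 3 replicates of each of 6 ovarian cancer cell lines, which form 3 pairs of a sensitive and a resistant line. The clinical pairs were derived from 2 people with high-grade serous ovarian cancer (HGSOC). PEA1 was established from ascites before platinum treatment and PEA2 from the same patient after relapse. PEO1 and PEO4 came from the other patient before and after clinical resistance, both of them after platinum chemotherapy. In the in vitro pair, A2780, a line labelled as endometrial or ovarian cancer, was the sensitive line and CP70 its derivative with platinum resistance acquired in culture. All lines grew in RPMI-1640 with glutamine and fetal bovine serum, and no drug appears in the labels of these libraries. The contrast, called the interaction here, was the mean of PEA2 minus PEA1 and PEO4 minus PEO1, minus CP70 minus A2780, on the log2 scale. It used 12 clinical and 6 in vitro libraries, all 18 of the series. Because there were 2 clinical pairs and 1 in vitro pair, the origin of resistance cannot be told apart from what is particular to each patient or to A2780. Nothing in the labels says that the replicates came from separate cultures, so FDR values measure the spread between libraries, which may be technical.

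Platinum drugs bind DNA and join bases within and between strands, and a cell survives by keeping the drug out, repairing or tolerating the lesions, or failing to die from them. Cells selected in culture meet the drug alone, whereas cells in a patient also meet immune cells, stroma, low oxygen and several courses of treatment. Interferon-stimulated genes, which lead the shared list below, are antiviral and damage-response genes switched on by interferon signaling at a DNA motif called the interferon-stimulated response element (ISRE).

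Expression is given as log2 CPM (the log2 of counts per 1000000 reads), in which 0.5 reads had been added to each count before division by a scaled library size. Each library held from 1344098 to 7067336 reads on the 12853 listed genes, the fewest in PEA1, and 3 reads, taken here as the floor, equalled 0.452 to 2.18 CPM. These floors cover counting error only. Of 15 markers of serous ovarian epithelium, 13 in PEO1, 13 in PEO4, 15 in PEA2 and 10 in PEA1 exceeded 3 reads in at least 1 library. CP70 had 5 of them and A2780 had 2, with PAX8 and WT1, transcription factors of serous tumors, at the floor in both lines. The summed level of that list was 4450 to 4779 CPM in PEA2 against 499 to 660 CPM in PEA1, while it was 6438 to 8113 CPM in PEO4 and 7971 to 9034 CPM in PEO1. Its part in the results was not tested. Of 12 leukocyte markers only PTPRC was in the table, at 20.1 to 25.1 CPM in PEA2 and at or below 0.526 CPM elsewhere. Among 8 endothelial markers CDH5 and ERG were in the table, with summed levels of 0 CPM in A2780 and CP70 and at most 49.9 CPM in the other lines. The 7 fibroblast markers in the table summed to 572 to 793 CPM in A2780, 931 to 1071 CPM in CP70, 367 to 450 CPM in PEA1, 8.63 to 10.5 CPM in PEA2, 155 to 175 CPM in PEO1 and 230 to 237 CPM in PEO4. In these bulk libraries, fewer cells of a kind and less RNA per cell cannot be told apart.

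At FDR below 0.05 and a log2 difference beyond 2, 799 genes (6.22% of the 12853 tested) had a higher interaction, meaning a larger rise or smaller fall in the clinical pairs, and 1007 (7.83%) had a lower one. Without the threshold on size these were 25.0% and 25.9% of all genes. A high interaction did not mean that both clinical pairs had changed. Among the 799 genes, 245 passed the thresholds in the in vitro pair alone, where they fell, and 275 rose in the PEA pair alone. Another 63 rose in the PEO pair alone, and 40 rose in both clinical pairs with no fall past the threshold in vitro. Among the 1007 genes, 409 had risen in the in vitro pair alone and 40 had fallen in both clinical pairs. The change in the PEA pair differed from that in the PEO pair (FDR below 0.05) for 558 of the 799 and 678 of the 1007. With each pair counted as 1 value, so that the 2 clinical pairs gave the spread, limma called 0 genes in either direction, and 260 and 390 had an unadjusted p below 0.05 with a difference beyond 2. The calls above therefore hold for these lines and measure the spread between libraries of a line.

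**Figure D1:**
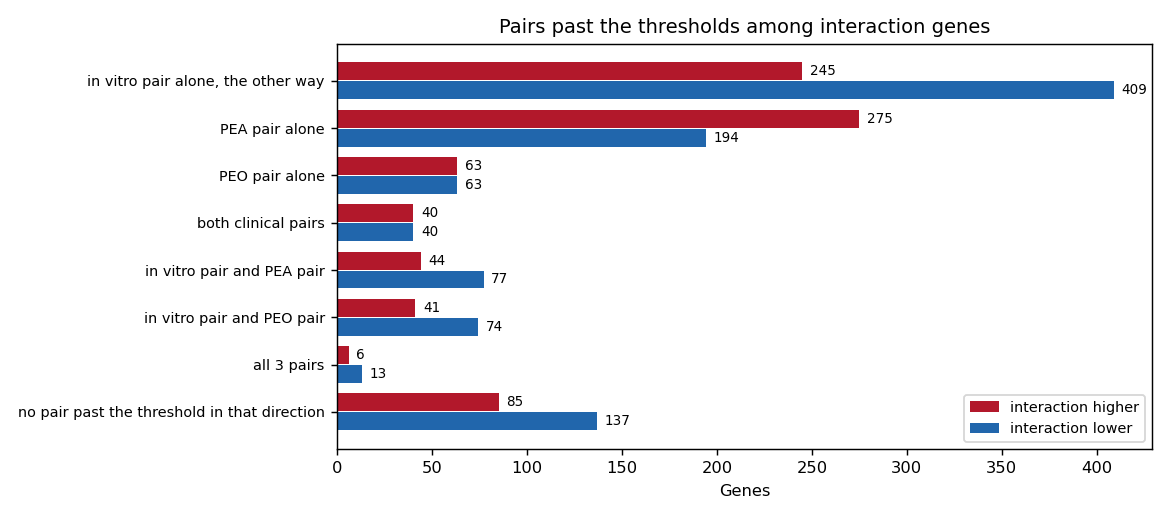
Number of genes (x axis) by which pairs passed FDR below 0.05 and a log2 change beyond 2 (rows), for the 799 genes with a higher interaction (red) and the 1007 with a lower one (blue). For the in vitro pair the change counted is the one opposite to the interaction. The in vitro pair alone accounted for 245 and 409 genes and both clinical pairs together for 40 and 40.

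The genes at the ends of the interaction, among those with over 3 reads in at least 1 library of every line, showed this. MEST, an imprinted gene of the hydrolase fold, measured 10.28, 10.45 and 10.37 in A2780 and 0.091, -0.76 and 0.24 in CP70. It fell by 10.50 on the log2 scale in vitro, while it changed by -2.17 for the PEA lines and 1.29 for the PEO lines, so the clinical pairs moved apart. MEST overlaps COPG2 on the other strand. TES, a LIM protein of focal adhesions, and COL6A3, a collagen VI chain, likewise had log2FC of -7.64 and -7.68 in the A2780 pair. The clinical values of TES were 1.70 (SE 0.19, FDR 2.44e-07) for the PEA lines and 0.48 (SE 0.19, FDR 0.0545) for the PEO lines. Those of COL6A3 were -1.51 (SE 0.75, FDR 0.0864) and 3.42 (SE 0.75, FDR 0.000958). At the other end stood ANXA1, a phospholipid-binding annexin that restrains inflammation, at 0.62, 1.90 and 2.36 in A2780 and 11.21, 11.13 and 11.16 in CP70, a log2FC of 9.54 (SE 0.26, FDR 9.72e-17). ANXA1 had log2FC of 0.57 (SE 0.26, FDR 0.0614) for the PEA lines and 0.03 (SE 0.26, FDR 0.939) for the PEO lines. CDR1, for which no position was matched, had log2FC of 8.93 (SE 0.48, FDR 5.18e-12) in vitro, 0.26 (SE 0.48, FDR 0.649) for the PEA lines and 0.43 (SE 0.48, FDR 0.514) for the PEO lines. MID1, a microtubule-bound ubiquitin ligase, had log2FC of 5.95 (SE 0.20, FDR 2.82e-15) in vitro, -0.91 (SE 0.20, FDR 0.000491) for the PEA lines and -3.31 (SE 0.20, FDR 9.15e-11) for the PEO lines.

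Genes shared by both clinical pairs were therefore taken separately. A gene counted as shared when PEA2 minus PEA1 and PEO4 minus PEO1 each passed FDR 0.05 and a log2FC beyond 2 in 1 direction and the interaction passed FDR 0.05 in that direction. There were 53 shared rises (0.412% of the genes tested) and 58 shared falls (0.451%). The median log2FC of the 53 was 3.85 in the PEA pair, 3.21 in the PEO pair and -0.37 in the A2780 pair. For the 58 these medians were -3.83, -2.99 and -0.019. The rule itself holds the A2780 values away from the clinical ones. In 35 of the rises and 32 of the falls, at least 1 of the 4 clinical lines was at or below 3 reads in every library, so the fitted values of these genes depend on the reads added. With such a line counted as 3 reads, both clinical folds still exceeded 2 for 44 rises and 52 falls. The PEA and PEO changes of these genes differed in size for 28 of the 53 and 30 of the 58, being larger in the PEA pair for 21 and 26 of them.

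By their behavior in the in vitro pair, the 53 rises divided into 25 that were at or below 3 reads in all 6 A2780 and CP70 libraries, 8 that fell in CP70 by more than 1 on the log2 scale (FDR below 0.05), 2 whose 95% interval lay within 2-fold, and 18 that were smaller or not resolved. Of these 18, 10 also rose in CP70 at FDR below 0.05, by less than the mean of the clinical pairs. The 58 falls divided into 21 not detected in vitro, 18 opposite, 5 within 2-fold and 14 others, of which 4 also fell in CP70. Over all genes, 890 (6.92%) were not detected in the in vitro pair. The opposite genes were 15.1% of the rises and 31.0% of the falls. Of all genes, 17.7% fell and 22.2% rose in CP70 at FDR below 0.05, with no bound on size. Asking for an interaction in the clinical direction favors opposite genes. With 2 reads added to each count in place of 0.5, the opposite genes numbered 5 and 11, and with a log2 threshold of 1 they numbered 31 and 77.

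**Figure D2:**
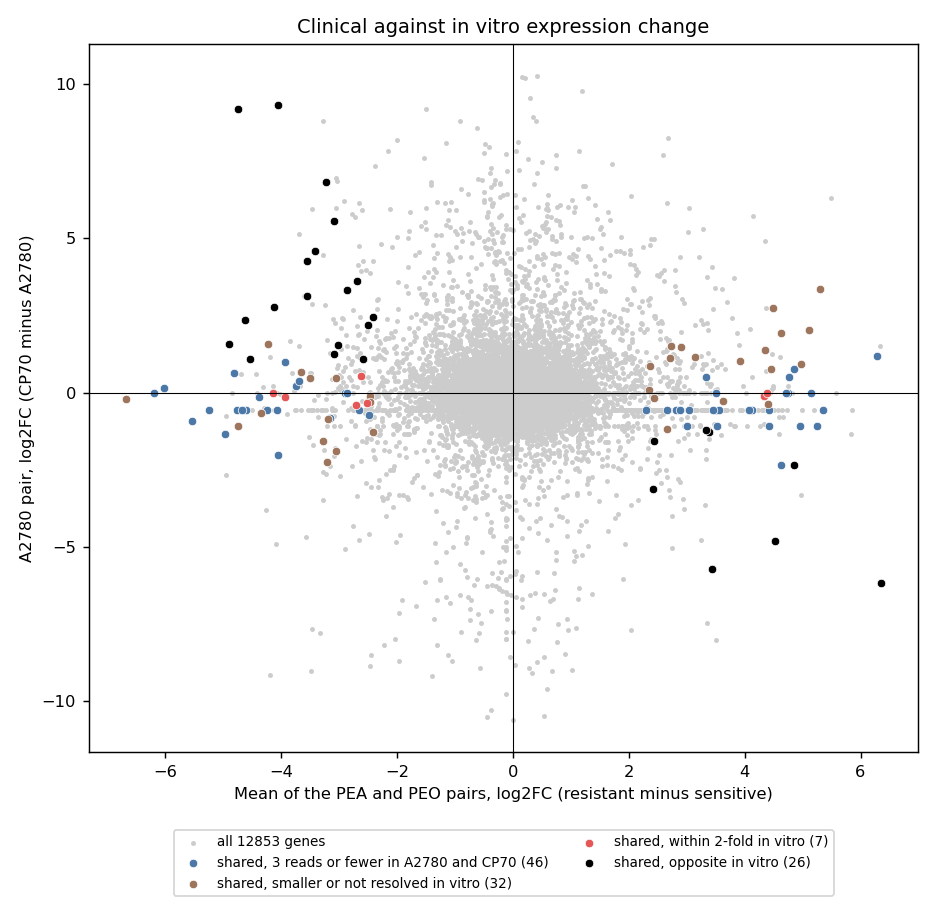
Change of each gene in the clinical pairs (x axis, mean log2FC of the PEA and PEO pairs) against the in vitro pair (y axis, log2FC of CP70 minus A2780). Grey points are the 12853 genes and colored points the shared clinical genes by their class in vitro. The 8 shared rises that fell in vitro lie at the lower right and the 18 shared falls that rose in vitro at the upper left.

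The 8 shared rises that moved the other way in vitro were IFITM1, PCDH7, IGFBP2, ERBB4, NEDD9, PTPRU, CDC42EP5 and IFITM3. IFITM1 and IFITM3 encode interferon-induced membrane proteins that block virus entry. IFITM1 measured 4.13, 4.45 and 3.45 in A2780 and -2.02, -1.49 and -2.93 in CP70, -1.46, -1.49 and 1.01 in PEA1 and 5.04, 5.22 and 5.39 in PEA2, and -1.03, -2.48 and -0.27 in PEO1 and 5.60, 5.62 and 5.50 in PEO4. The 2 clinical resistant lines were high and their sensitive lines near the floor, whereas A2780 was high and CP70 held at most 1 read in any library. Its log2FC was 5.86 (SE 0.60, FDR 5.44e-08) for the PEA lines, 6.84 (SE 0.60, FDR 1.92e-08) for the PEO lines and -6.16 (SE 0.60, FDR 4.67e-08) in the A2780 pair. Against 3 reads, IFITM1 was at least 18.4-fold higher in PEA2 than in PEA1 and at least 25-fold lower in CP70 than in A2780. The interaction was 12.51 (SE 0.73, FDR 2.57e-11). IFITM1 lies at chr11:310041-315272 (GRCh37) and IFITM3 at chr11:319676-329475, 4404 bases apart. IFITM3 was well above the floor in every line. It measured 4.65, 4.92 and 4.64 in PEA1 and 7.15, 7.26 and 7.35 in PEA2, 3.0, 3.99 and 3.12 in PEO1 and 7.48, 7.45 and 7.58 in PEO4, and 7.64, 7.5 and 7.68 in A2780 and 6.45, 6.48 and 6.29 in CP70. No libraries overlapped within any pair, and the interaction was 4.53 (SE 0.21, FDR 1.07e-12). The IFITM genes are near-identical in part, and how reads were split among them is uncertain.

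The other 6 included proteins of cell contacts and of growth factor signaling. NEDD9, a scaffold protein of focal adhesions, was above the floor in the clinical lines and measured 5.59, 5.05 and 5.07 in PEA1 and 8.09, 7.45 and 8.02 in PEA2, 3.45, 3.40 and 3.45 in PEO1 and 5.53, 5.83 and 5.62 in PEO4, and 2.89, 2.72 and 2.23 in A2780 and -0.15, -0.76 and -0.61 in CP70. Its log2FC was 2.61 (SE 0.24, FDR 9.5e-09) for the PEA lines, 2.23 (SE 0.24, FDR 2.44e-07) for the PEO lines and -3.12 (SE 0.24, FDR 1.11e-09) in the A2780 pair, and PEA minus PEO was 0.39 (SE 0.33, FDR 0.33). PTPRU, a receptor tyrosine phosphatase, had log2FC of 2.75 (SE 0.26, FDR 2.42e-08), 2.12 (SE 0.26, FDR 1.99e-06) and -1.56 (SE 0.26, FDR 7.18e-05) in the PEA, PEO and A2780 pairs. PCDH7, a protocadherin of cell contacts, measured 1.35, 0.10 and -1.80 in PEA1 and 4.02, 3.31 and 3.36 in PEA2, and 0.19, -2.48 and -2.15 in PEO1 and 3.88, 3.96 and 3.81 in PEO4, at least 5.93-fold and 17.4-fold higher in the resistant lines. The A2780 pair ran the other way for PCDH7, with 3.98, 3.87 and 4.21 in A2780 and -0.80, -0.27 and -1.34 in CP70, at least 24.3-fold lower in CP70. IGFBP2, a secreted binder of insulin-like growth factors, held no reads in PEA1 and 3 to 10 reads in PEA2. It was at least 1.48-fold higher in PEA2 and at least 7.92-fold higher in PEO4, and measured 8.11, 7.35 and 8.06 in A2780 and 2.50, 1.78 and 2.12 in CP70, a log2FC of -5.71 (SE 0.57, FDR 7.63e-08). ERBB4, the neuregulin receptor kinase, was at least 1.25-fold higher in PEA2, with 5 to 9 reads there. In the PEO pair it measured -2.62, -2.48 and 0.18 in PEO1 and 4.57, 5.49 and 5.03 in PEO4, a log2FC of 6.67 (SE 0.64, FDR 6.27e-08). PEA minus PEO was -3.64 (SE 0.90, FDR 0.0018) for ERBB4. In vitro ERBB4 held 3 to 6 reads in A2780 and 0 to 2 in CP70, at least 1.87-fold lower, so its opposite change rests on few reads. CDC42EP5, an effector of the GTPase CDC42, had 2 to 4 reads in PEO4 and none in PEO1, and its bounds were at least 2.51-fold in PEA2 and 1.41-fold in PEO4.

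**Figure D3:**
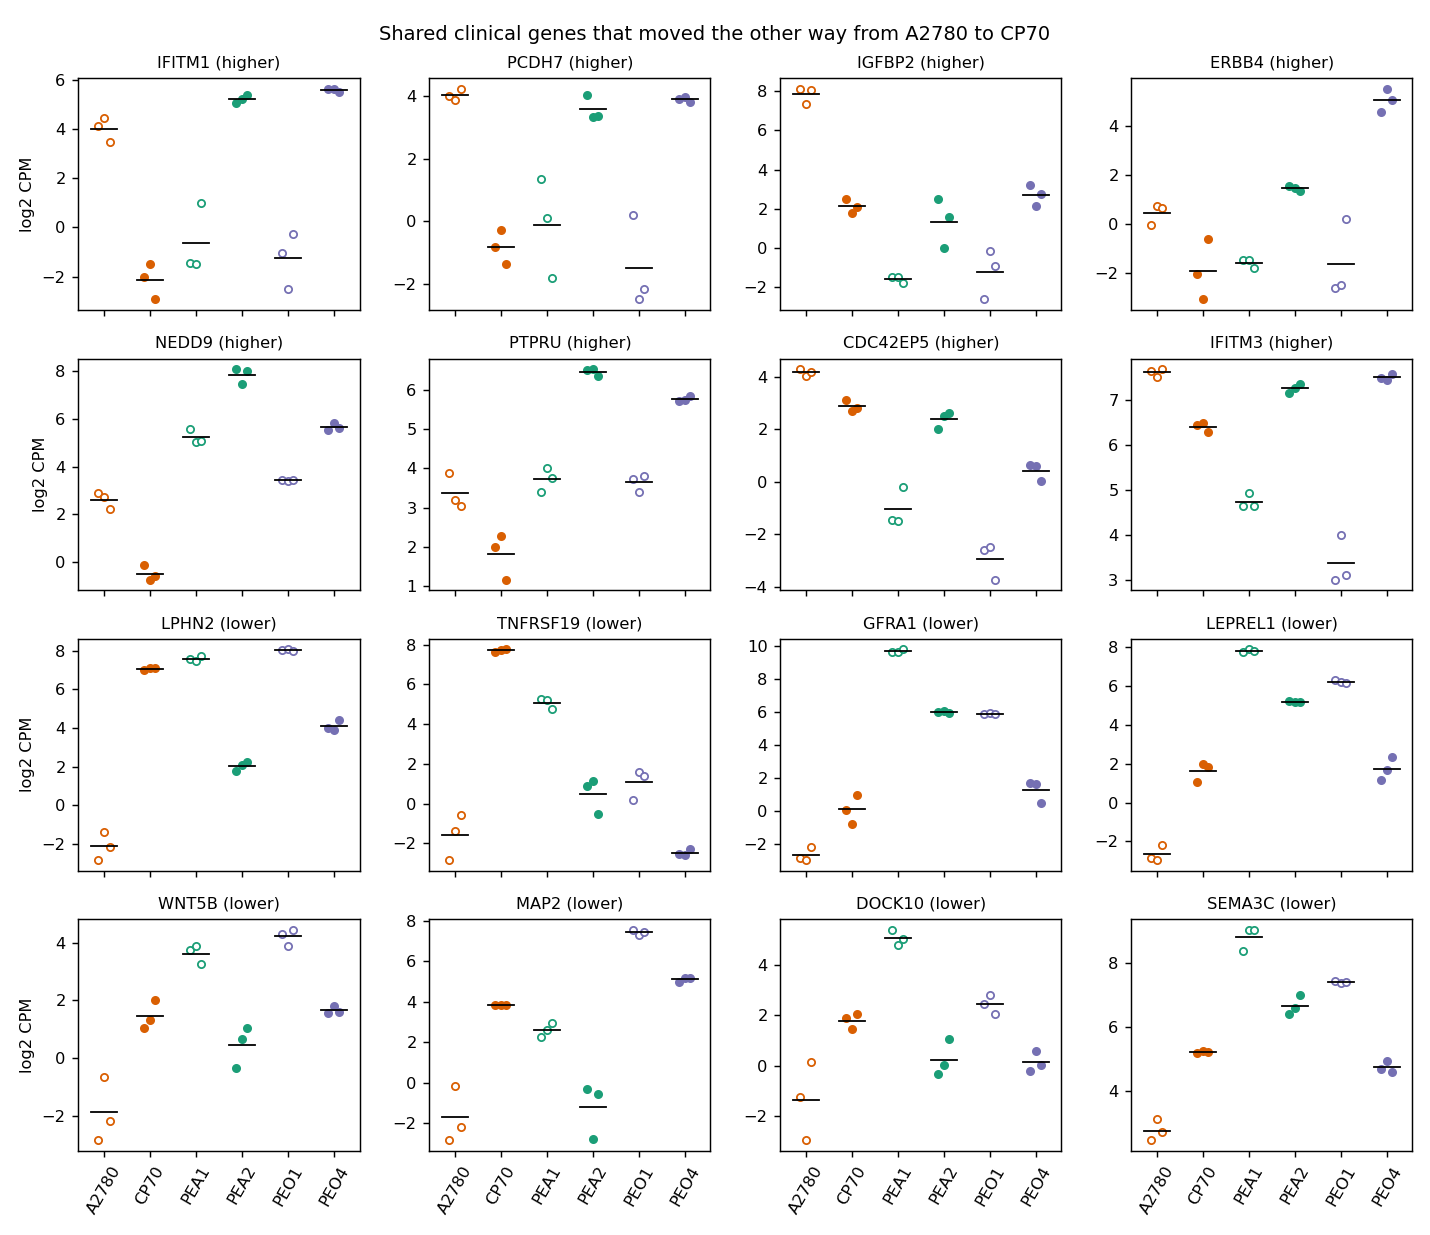
Expression (y axis, log2 CPM, scales differ between panels) of 16 shared clinical genes that moved the other way from A2780 to CP70, in the 6 lines (x axis). Open points are libraries of sensitive lines, filled points those of resistant lines, and black lines the mean of 3 replicates. In the upper 2 rows the clinical pairs rose and the in vitro pair fell, and in the lower 2 rows the reverse.

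Of the 18 shared falls that rose in vitro, the 8 named here had the largest changes when each gene was ranked by its smallest log2FC over the 3 pairs, and were LPHN2, TNFRSF19, GFRA1, LEPREL1, WNT5B, MAP2, DOCK10 and SEMA3C. LPHN2, an adhesion receptor of the G protein-coupled class, measured 7.60, 7.45 and 7.72 in PEA1 and 1.79, 2.06 and 2.26 in PEA2, and 8.06, 8.07 and 8.0 in PEO1 and 4.01, 3.89 and 4.44 in PEO4. In the in vitro pair it measured -2.84, -1.37 and -2.16 in A2780 and 7.0, 7.08 and 7.12 in CP70, at least 136-fold higher in CP70. CP70 stood just below the sensitive clinical lines and far above both resistant clinical lines, and A2780 held at most 1 read. Its interaction of -13.93 (SE 0.32, FDR 2.52e-17) was the lowest of the shared genes, and a second annotated gene overlaps it on the same strand. TNFRSF19, a receptor of the tumor necrosis factor family and a Wnt target, measured 5.25, 5.20 and 4.74 in PEA1 and 0.90, 1.11 and -0.54 in PEA2, and 0.19, 1.60 and 1.40 in PEO1 and -2.53, -2.58 and -2.30 in PEO4. It was at least 1.97-fold lower in PEO4, which held no reads, and at least 212-fold higher in CP70, at -2.84, -1.37 and -0.58 in A2780 and 7.64, 7.73 and 7.75 in CP70.

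GFRA1, the co-receptor through which GDNF reaches RET, measured 9.64, 9.60 and 9.77 in PEA1 and 6.01, 6.02 and 5.95 in PEA2, and 5.84, 5.91 and 5.85 in PEO1 and 1.72, 1.66 and 0.51 in PEO4. Its log2FC was -3.67 (SE 0.37, FDR 3.89e-08) for the PEA lines and -4.57 (SE 0.37, FDR 5.69e-09) for the PEO lines. In CP70 it had 2 to 7 reads against none in A2780, at least 1.12-fold. SEMA3C, a secreted semaphorin, was above the floor throughout, with 8.37, 9.02 and 9.04 in PEA1 and 6.40, 6.58 and 7.01 in PEA2, 7.44, 7.36 and 7.39 in PEO1 and 4.67, 4.92 and 4.59 in PEO4, and 2.45, 3.11 and 2.70 in A2780 and 5.19, 5.25 and 5.21 in CP70. PEA minus PEO was 0.53 (SE 0.26, FDR 0.086) for SEMA3C, and the interaction was -4.87 (SE 0.22, FDR 6.72e-13). LEPREL1, a collagen prolyl 3-hydroxylase, had log2FC of -2.62 and -4.49 in the clinical pairs and was at least 3.11-fold higher in CP70. WNT5B, a Wnt ligand that overlaps FBXL14 on the other strand, had log2FC of -3.16 and -2.56 and was at least 2.8-fold higher in CP70. MAP2, which binds microtubules in neurons, was at least 4.57-fold lower in PEA2, had a log2FC of -2.33 from PEO1 to PEO4, and was at least 14.4-fold higher in CP70. DOCK10, an exchange factor for small GTPases, changed by -4.82 and -2.29, a difference of -2.52 (SE 0.79, FDR 0.0103) between the clinical pairs, and was at least 3.44-fold higher in CP70.

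A change in both clinical pairs with little or none in vitro could be bounded for 7 genes, those with a 95% interval of CP70 minus A2780 inside 2-fold either way. PLAT, the tissue plasminogen activator, and TNNT1, the troponin T of slow muscle, rose. TNNT1 measured 0.86, 0.10 and 0.52 in PEA1 and 3.45, 4.92 and 4.58 in PEA2, 1.47, 0.69 and 1.13 in PEO1 and 5.79, 6.0 and 6.03 in PEO4, and 6.71, 6.19 and 6.60 in A2780 and 6.45, 6.44 and 6.25 in CP70. The sensitive clinical lines were low and the resistant ones high, while the A2780 and CP70 libraries overlapped and lay above all of these. PLAT measured 4.52, 5.61 and 5.67 in PEA1 and 10.43, 10.38 and 10.47 in PEA2, 2.51, 1.22 and 2.75 in PEO1 and 5.62, 5.99 and 5.68 in PEO4, and -0.52, 0.50 and 1.75 in A2780 and 0.78, 0.38 and 0.53 in CP70. Its log2FC was 5.16 (SE 0.44, FDR 4.12e-09) for the PEA lines and 3.61 (SE 0.44, FDR 1.47e-06) for the PEO lines, against -0.012 (SE 0.44, FDR 0.985) in vitro. PLAT held 2 to 7 reads in A2780 and 5 to 10 in CP70, so its in vitro interval rests on few reads.

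NDN and FOXL2 led the 5 falls of this kind. NDN, an imprinted gene for the growth suppressor necdin, measured 4.8, 4.82 and 4.54 in PEA1 and -0.32, 1.45 and 1.04 in PEA2, 5.39, 5.58 and 5.43 in PEO1 and 1.38, 1.32 and 2.09 in PEO4, and 4.99, 4.74 and 5.06 in A2780 and 4.81, 4.86 and 4.65 in CP70. The mean was 4.72 to 5.47 in A2780, CP70, PEA1 and PEO1, and PEA2 and PEO4 stood below them. NDN had log2FC of -4.00 (SE 0.33, FDR 2.42e-09) for the PEA lines and -3.87 (SE 0.33, FDR 1.23e-08) for the PEO lines. FOXL2, a transcription factor of ovarian granulosa cells, measured 4.09, 3.46 and 4.08 in PEA1 and -1.91, -1.21 and -2.13 in PEA2, 1.29, 1.22 and 1.89 in PEO1 and -0.21, -1.0 and -2.30 in PEO4, and 4.17, 3.81 and 3.77 in A2780 and 3.97, 3.93 and 3.81 in CP70. It was at least 11.5-fold lower in PEA2 and at least 2.47-fold lower in PEO4. IGSF3, an immunoglobulin-domain membrane protein, had log2FC of -2.78, -2.25 and -0.33 in the PEA, PEO and A2780 pairs. ENSG00000166503, named HDGFL3 in the annotation, had -3.03, -2.19 and 0.53, the last a rise at FDR 0.0124. ENSG00000259498, the antisense transcript TPM1-AS, had -3.27, -2.13 and -0.41. TPM1 itself, a tropomyosin on the other strand, had -2.97, -1.61 and -1.21, and reads of these overlapping genes cannot be told apart because the strand setting of the counting is not given in the sources used here.

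Genes below detection in A2780 and CP70 can show no change there, and were counted apart. BNC1, a zinc-finger protein of epithelial and germ cells, measured 0.86, 0.10 and 1.90 in PEA1 and 5.87, 5.23 and 5.63 in PEA2, and -2.62, -0.16 and -0.03 in PEO1 and 4.04, 3.79 and 4.04 in PEO4, with at most 1 read in any in vitro library. NCCRP1, an F-box-related protein, had a log2FC of 4.40 (SE 0.45, FDR 1.71e-07) for the PEO lines and was at least 5.62-fold higher in PEA2. SLC4A4, a sodium bicarbonate cotransporter, was at least 29-fold lower in PEA2 and at least 10.7-fold lower in PEO4. ADAMTSL3, a matrix protein, measured 6.62, 6.67 and 6.68 in PEA1 and 2.34, 1.11 and 1.57 in PEA2, and 4.93, 5.18 and 4.86 in PEO1 and 0.64, 0.22 and 1.40 in PEO4, and held no read in either in vitro line. NPNT, the integrin ligand nephronectin, which overlaps INTS12 on the other strand, had a log2FC of -7.11 (SE 0.47, FDR 1.2e-10) for the PEA lines and was at least 7.8-fold lower in PEO4.

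Some of the shared genes were neighbors. On chromosome 15, HDGFL3 (chr15:83781490-83876575, a fall), BNC1 (chr15:83924636-83953416, a rise) and ADAMTSL3 (chr15:84322840-84708594, a fall) stood in that order on GRCh37, 48061 and 369424 bases apart. On chromosome 5, TENM2, SLIT3, DOCK2 and FAM196B all fell, and DOCK2 and FAM196B overlap. Of the 53 rises 49 were protein-coding, and of the 58 falls 56. The line with the highest mean was PEA2 for 28 rises and PEO4 for 15, but A2780 for 7 and CP70 for 3. It was PEA1 for 28 falls and PEO1 for 22, and A2780 or CP70 for 3 and 5.

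The 44 gene lists were then read with a shared change defined by FDR alone. By this rule 4.30% of all genes were shared rises and 5.10% shared falls, with FDR below 0.05 in both clinical pairs and the interaction. Interferon-stimulated genes had the highest share of rises, 21 of 57 in the table (36.8%) and no falls. Then came EGFR ligands and ERBB receptors with 3 of 14 (21.4%), beside 2 falls, glycolysis and the hypoxia response with 7 of 33 (21.2%) and heat shock proteins with 5 of 24 (20.8%), the latter pair of lists with no shared fall. The median interaction of the EGFR and ERBB list was -0.43, with 4 of 14 members higher and 7 lower. The highest shares of falls were in mismatch repair, 4 of 16 (25.0%), mitosis, 8 of 38 (21.1%), targets of YAP and TEAD, 5 of 24 (20.8%), and replication and S phase, 7 of 40 (17.5%). Only mitosis among these had a shared rise, in 1 gene. The mismatch repair list also fell in vitro, with a median log2FC of -0.33 in the A2780 pair. The lists overlap, and no set test was made.

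**Figure D4:**
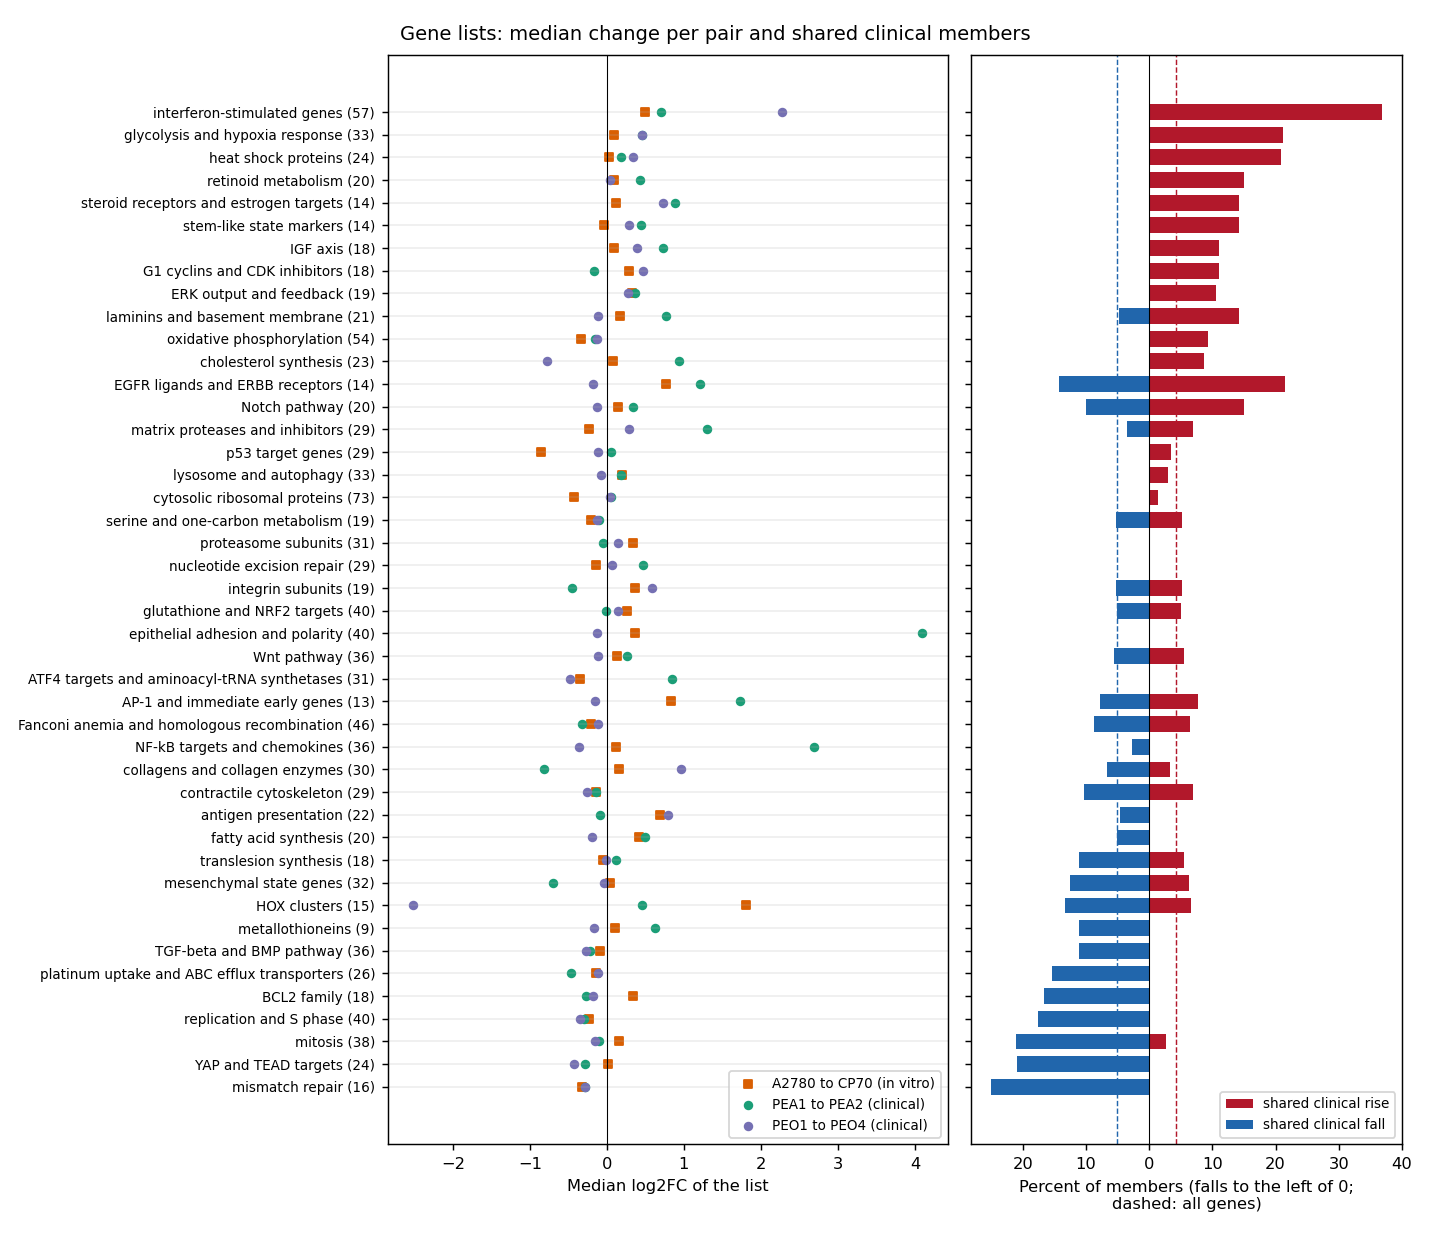
Median log2FC of each of 44 gene lists in the 3 pairs (left, x axis) and percent of members that were shared clinical rises or falls by FDR alone (right, x axis). Numbers in parentheses are members in the table and dashed lines the percentages over all genes, 4.30 and 5.10. Interferon-stimulated genes head the rises at 36.8% and mismatch repair the falls at 25.0%. The mismatch repair list has a median below 0 in the A2780 pair too.

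Of 57 interferon-stimulated genes in the table, 21 rose in both clinical pairs with a mean clinical change above the in vitro one, and none fell in both. The rule compares that mean, so either clinical pair alone need not exceed the in vitro change. Their median log2FC was 2.28, 0.70 and 0.49 in the PEO, PEA and A2780 pairs, against medians over all genes of -0.017, 0.0053 and -0.025. In the PEO pair 56 of 57 rose, in the PEA pair 31 and in the A2780 pair 28, where 19.6%, 32.5% and 22.2% of all genes rose at FDR below 0.05. Their interaction was higher for 31 and lower for 13, with a median of 0.99. The 21 shared members were DDX60, DDX60L, IFI6, IFI27, IFIT1, IFIT2, IFIT3, IFIT5, IFITM1, IFITM3, IRF7, ISG15, LAMP3, MX1, MX2, OAS1, PARP12, PLSCR1, SAMD9, STAT2 and TRIM21. In vitro, 9 of the 21 fell at FDR below 0.05, 5 rose by less than the clinical mean and 7 did not pass. The rule favors members that fell in vitro, since it asks for a higher interaction. Over all 57 members, 10 fell in vitro (17.5%, against 17.7% of all genes) and 28 rose. Of the 21, 5 were at the floor in all 6 in vitro libraries. The change was larger in the PEO pair for 12 of the 21 and larger in the PEA pair for 5.

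The members with the largest interactions and the signaling genes are given in turn, and the IFIT genes, like DDX60 and DDX60L, are close copies whose reads may have been split. ISG15, a ubiquitin-like protein, measured 4.03, 4.44 and 3.76 in PEA1 and 5.46, 5.85 and 5.42 in PEA2, 3.27, 3.13 and 3.35 in PEO1 and 7.66, 7.30 and 7.68 in PEO4, and 5.73, 4.78 and 5.68 in A2780 and 4.66, 4.31 and 4.60 in CP70. Its libraries did not overlap within any pair, and it fell in vitro with a log2FC of -0.87 (SE 0.22, FDR 0.00374) against 1.5 (SE 0.22, FDR 8.39e-06) and 4.30 (SE 0.22, FDR 1.56e-11) in the PEA and PEO pairs. IFIT1, which binds foreign RNA and overlaps LIPA on the other strand, measured 4.15, 4.62 and 3.93 in PEA1 and 5.96, 5.72 and 5.13 in PEA2, 1.91, 2.38 and 1.76 in PEO1 and 7.90, 7.85 and 7.79 in PEO4, and 7.38, 7.48 and 7.52 in A2780 and 5.94, 6.15 and 6.16 in CP70. STAT2, a transducer of the interferon signal, had log2FC of 0.70 (SE 0.15, FDR 0.000397), 1.52 (SE 0.15, FDR 8.5e-08) and -1.05 (SE 0.15, FDR 7.93e-06) in the PEA, PEO and A2780 pairs. IRF7, a transcription factor that raises interferon production, was at least 4.68-fold higher in PEA2 and had log2FC of 1.69 (SE 0.44, FDR 0.00435) in the PEO pair and 0.37 (SE 0.44, FDR 0.53) in the A2780 pair. MX2, a dynamin-like antiviral GTPase, and LAMP3, a lysosomal membrane protein, changed more in the PEA pair, where they were at least 22.7-fold and 41.1-fold higher in PEA2. Their log2FC in the PEO pair were 1.79 and 2.33, and PEA minus PEO was 5.29 (SE 0.67, FDR 1.36e-06) and 5.58 (SE 0.68, FDR 7.87e-07). IFI27 was at least 28.8-fold higher in PEA2 than in PEA1, and measured 5.82, 5.45 and 6.37 in PEO1 and 8.70, 8.55 and 8.80 in PEO4. OAS1, which makes the activator of RNase L, measured 2.45, 3.04 and 2.73 in PEA1 and 4.20, 4.74 and 3.85 in PEA2, and 2.74, 1.91 and 2.96 in PEO1 and 6.80, 6.50 and 6.79 in PEO4, with no read in A2780 or CP70. BST2, a tether of budding viruses, was chosen after its values were seen as a member that was not shared. BST2 had log2FC of -2.89 (SE 0.40, FDR 3.63e-06) in the PEA pair and -4.48 (SE 0.40, FDR 1.54e-08) in the A2780 pair and was at least 21.8-fold higher in PEO4.

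**Figure D5:**
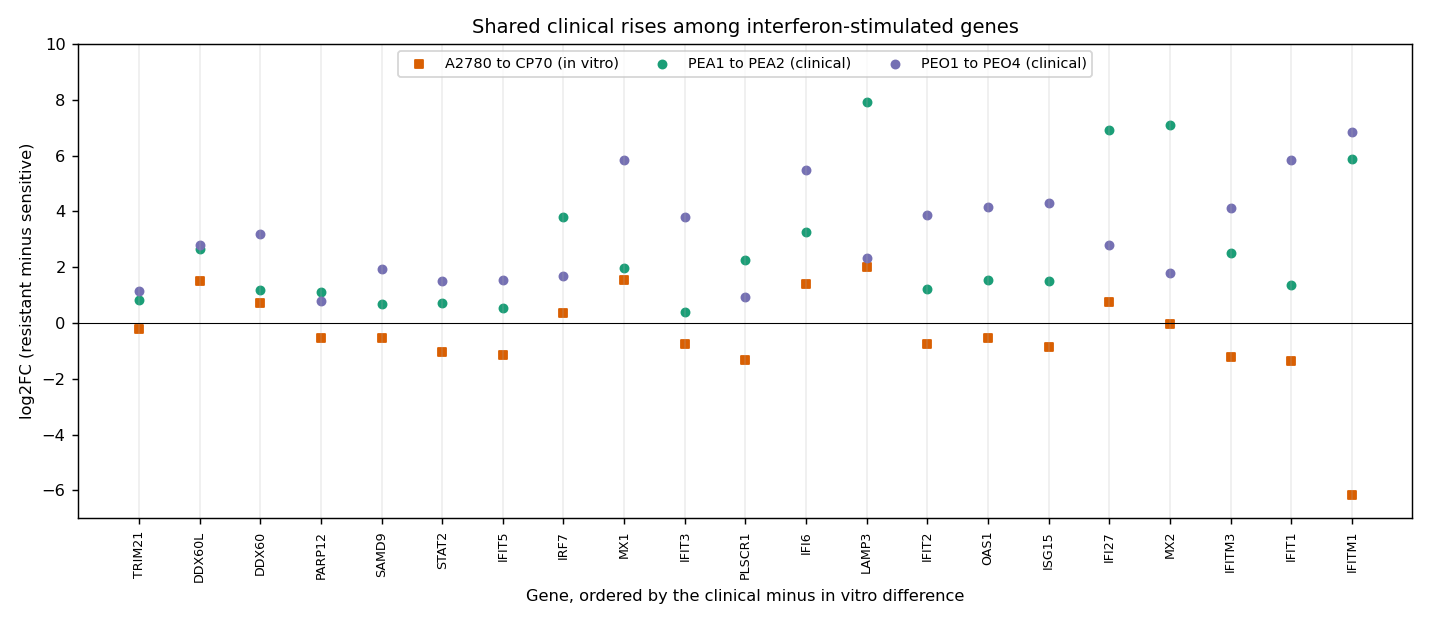
Change (y axis, log2FC, resistant minus sensitive) of the 21 interferon-stimulated genes that were shared clinical rises (x axis, ordered by the interaction) in the A2780 pair (squares) and the PEA and PEO pairs (circles). The circles of all 21 lie above 0 and each square lies below the mean of its circles, as the choice of genes requires. At FDR below 0.05, 9 of the squares are falls and 5 are rises. Over all 57 members of the list, 10 fell and 28 rose in the A2780 pair.

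Promoters of 17 of the 21 shared members were matched in RefSeq (build GRCh38.p14, 250 bases before to 50 after the start). The ISRE letters GAAANNGAAA, searched on both strands, stood in 15 of these 17, in 13 of 27 other members of the list with a promoter, and in 996 of 27305 promoters overall (3.65%). No other motif was searched in this list, and a match is a description of letters, not of a bound site. The promoters of 3 shared members are shown because they carry repeated copies, with the ISRE letters in capitals. They lie at chr11:313790-314089 on the plus strand, chr11:320811-321110 on the minus strand and chr1:27672143-27672442 on the minus strand, each 300 bases, written 5′ to 3′.
IFITM1: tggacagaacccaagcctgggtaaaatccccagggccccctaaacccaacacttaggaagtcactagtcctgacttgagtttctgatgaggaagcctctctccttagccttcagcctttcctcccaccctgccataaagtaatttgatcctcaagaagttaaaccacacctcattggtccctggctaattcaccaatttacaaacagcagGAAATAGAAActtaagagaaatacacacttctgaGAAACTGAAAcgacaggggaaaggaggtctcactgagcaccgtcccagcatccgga
IFITM3: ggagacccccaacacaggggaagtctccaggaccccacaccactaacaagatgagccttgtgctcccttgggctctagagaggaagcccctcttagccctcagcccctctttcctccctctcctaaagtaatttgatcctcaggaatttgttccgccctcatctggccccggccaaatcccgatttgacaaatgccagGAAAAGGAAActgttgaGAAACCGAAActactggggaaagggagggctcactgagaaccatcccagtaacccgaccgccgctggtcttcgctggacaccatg
IFI6: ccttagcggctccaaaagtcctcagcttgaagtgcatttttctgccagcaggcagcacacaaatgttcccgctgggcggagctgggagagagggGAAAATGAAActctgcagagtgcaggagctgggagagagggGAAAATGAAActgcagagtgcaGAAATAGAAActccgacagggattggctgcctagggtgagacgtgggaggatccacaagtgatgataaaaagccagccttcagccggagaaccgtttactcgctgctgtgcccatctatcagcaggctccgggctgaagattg
IFITM1 and IFITM3 each held 2 copies and IFI6, a mitochondrial protein with log2FC of 3.25, 5.47 and 1.39 in the PEA, PEO and A2780 pairs, held 3.

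Genes of glycolysis and the hypoxia response are targets of HIF transcription factors in low oxygen, although the cultures were not labelled as hypoxic. Both clinical pairs had a median log2FC of 0.46 over the list, against 0.097 in the A2780 pair. Of 33 members, 13 (39.4%) had a higher interaction and 10 (30.3%) a lower one, against 25.0% and 25.9% of all genes. In vitro 10 of the 33 rose and 3 fell, where 22.2% and 17.7% of all genes did. The 7 shared rises were ALDOA, MXI1, P4HA1, PFKL, PGK1, SLC2A3 and VEGFA. VEGFA, the growth factor for blood vessels, measured 6.69, 6.63 and 6.48 in PEA1 and 8.71, 8.19 and 8.55 in PEA2, 4.25, 4.29 and 4.20 in PEO1 and 6.59, 6.92 and 6.72 in PEO4, and 6.05, 5.77 and 5.74 in A2780 and 5.73, 5.61 and 5.54 in CP70. It rose in both clinical pairs, with log2FC of 1.88 (SE 0.13, FDR 1.82e-10) and 2.50 (SE 0.13, FDR 1.41e-11), and its change in vitro was -0.23 (SE 0.13, FDR 0.175). The glycolytic enzymes PFKL, PGK1 and ALDOA rose by 0.54 to 1.14 on the log2 scale in the clinical pairs, and ALDOA also rose in CP70, with a log2FC of 0.38. MXI1, a MYC antagonist, had log2FC of 0.82, 0.64 and -1.47 in the PEA, PEO and A2780 pairs. SLC2A3, a glucose transporter, had a log2FC of -1.97 (SE 0.53, FDR 0.00502) in vitro, while PEA1 held no reads and PEA2 0 to 4, so its PEA change rests on the floor and is not given as a fold. With library sizes taken as the plain read totals, a choice made after seeing the data, the count of shared rises was 4 in place of 7. That scaling moves the median of all genes by over 0.1 in the PEA pair, to -0.24, and in the interaction, to -0.13. PGK1 overlaps ATP7A and PGAM4 in the annotation. The core letters of the hypoxia response element, ACGTG or GCGTG on either strand, which share their last 4 letters, were common in promoters. ACGTG stood in 3 of 5 shared members with a promoter, 10 of 25 others and 21.6% of all, and GCGTG in 2 of 5, 13 of 25 and 36.3%.

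Of the heat shock proteins, HSP90B1, HSPA1A, HSPA1B, HSPA4 and HSPH1 were shared rises. HSPA1A, the inducible HSP70 chaperone, measured 6.88, 6.97 and 6.96 in PEA1 and 8.04, 7.84 and 7.91 in PEA2, 7.61, 7.80 and 7.70 in PEO1 and 9.01, 8.95 and 9.29 in PEO4, and 7.14, 6.66 and 7.0 in A2780 and 5.60, 5.64 and 5.56 in CP70. The log2FC of HSPA1A was 0.99 (SE 0.11, FDR 2.2e-07), 1.38 (SE 0.11, FDR 7.29e-09) and -1.33 (SE 0.11, FDR 5.75e-09) in the PEA, PEO and A2780 pairs, so the in vitro change was the reverse of the clinical ones. HSPA1B is a near-identical copy with log2FC of 1.01, 1.37 and -1.21, and the division of reads between the copies is uncertain. HSP90B1, HSPA4 and HSPH1, chaperones that work beside HSP70 and HSP90, were within 2-fold in vitro and rose by 0.21 to 0.43 in the PEA pair and 0.26 to 1.33 in the PEO pair. Respiratory chain genes had 5 shared rises of 54 (9.26%), namely ATP5O, COX7A2, UQCRC2, UQCRFS1 and UQCRQ, and a median interaction of 0.25. Their medians were -0.15, -0.12 and -0.33 in the PEA, PEO and A2780 pairs, so that list sat below 0 in every pair.

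Of 38 mitotic genes, 17 fell and 7 rose in the PEA pair, and 13 fell and 5 rose in the PEO pair, at FDR below 0.05. The 8 shared falls, which also had a lower interaction, fell by 0.24 to 1.19 on the log2 scale in the PEA pair. In the PEO pair they fell by 0.32 to 0.99. BUB1B, CCNA2, CCNB2, CDC20, CDCA8, CENPA, KIF2C and NUSAP1 were the shared falls. All 8 were within 2-fold in vitro, where 5 rose at FDR below 0.05. The rule favors such members, since it asks for a lower interaction. Over the list 15 of 38 rose in vitro and 3 fell, where 22.2% and 17.7% of all genes did. CDC20, the activator of the anaphase-promoting complex, measured 8.05, 7.61 and 8.06 in PEA1 and 6.98, 7.36 and 7.25 in PEA2, 6.88, 7.01 and 7.16 in PEO1 and 6.48, 6.02 and 6.42 in PEO4, and 7.51, 6.97 and 7.0 in A2780 and 7.67, 7.80 and 7.62 in CP70. Its libraries did not overlap within any pair, and the log2FC were -0.71 (SE 0.16, FDR 0.000598), -0.71 (SE 0.16, FDR 0.00108) and 0.54 (SE 0.16, FDR 0.00947) in the PEA, PEO and A2780 pairs. CDCA8, a subunit of the chromosomal passenger complex, and CCNB2, a mitotic cyclin, had interactions of -1.36 (SE 0.12, FDR 1.2e-08) and -1.25 (SE 0.14, FDR 4.9e-07). TTK, a spindle checkpoint kinase, was the only shared rise of the list, with log2FC of 1.15 and 0.75 against 0.0078 in vitro. Over the list the medians were -0.11, -0.15 and 0.16 in the PEA, PEO and A2780 pairs, and 16 of 38 members had a lower interaction and 2 a higher one.

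The cell cycle homology region, here the letters TTTGAA on either strand, is found in promoters of genes expressed in G2 and M phase. It stood in the promoters of 6 of the 8 shared falls, in 14 of 24 other members with a promoter and in 15.4% of all promoters. Among replication genes it stood in 0 of 7 shared falls and 1 of 28 others. The promoters of CDC20 (chr1:43358731-43359030, plus strand, GRCh38.p14) and CCNB2 (chr15:59104896-59105195, plus strand) are shown as examples of these letters, which are in capitals.
CDC20: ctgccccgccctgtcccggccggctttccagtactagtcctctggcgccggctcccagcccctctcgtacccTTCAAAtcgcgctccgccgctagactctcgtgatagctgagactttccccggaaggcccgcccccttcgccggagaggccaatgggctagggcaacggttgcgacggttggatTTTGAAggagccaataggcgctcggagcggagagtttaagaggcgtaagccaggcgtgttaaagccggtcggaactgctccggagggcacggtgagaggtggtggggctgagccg
CCNB2: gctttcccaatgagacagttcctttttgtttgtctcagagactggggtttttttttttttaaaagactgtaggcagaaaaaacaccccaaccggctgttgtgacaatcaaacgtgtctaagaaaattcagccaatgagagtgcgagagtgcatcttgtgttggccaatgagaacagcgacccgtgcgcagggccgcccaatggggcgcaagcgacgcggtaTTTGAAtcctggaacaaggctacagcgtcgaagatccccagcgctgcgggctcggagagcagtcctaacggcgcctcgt
The 7 shared falls of the replication list were MCM10, PCNA, POLE, RFC3, RFC5, TYMS and E2F2, and 6 of them were within 2-fold in vitro. PCNA, the sliding clamp of DNA polymerases, measured 8.01, 8.11 and 7.97 in PEA1 and 7.5, 7.75 and 7.70 in PEA2, 8.06, 8.02 and 7.85 in PEO1 and 6.47, 6.24 and 6.34 in PEO4, and 8.41, 8.38 and 8.52 in A2780 and 7.89, 7.97 and 7.89 in CP70, so it fell in all 3 pairs and by most in the PEO pair. Its fall in the PEA pair was smaller than in vitro, so the lower interaction of PCNA came from the PEO pair. TYMS, which makes thymidylate and overlaps ENOSF1 on the other strand, had log2FC of -2.36 (SE 0.12, FDR 2.29e-12) and -0.32 (SE 0.12, FDR 0.0363) in the PEA and PEO pairs and -0.011 (SE 0.12, FDR 0.961) in vitro. This list rose in none of the pairs: its medians were -0.30, -0.35 and -0.23, and without PEO1 replicate 3 its count of shared falls was 4 in place of 7. PCNA, RFC3 and RFC5 were also 3 of the 4 shared falls of the mismatch repair list. EXO1, its exonuclease, was the fourth, with log2FC of -0.89 (SE 0.10, FDR 3.59e-07), -1.67 (SE 0.10, FDR 1.85e-10) and -0.47 (SE 0.10, FDR 0.00118) in the PEA, PEO and A2780 pairs. The median interaction of the mismatch repair list was 0.15, opposite in sign to its 4 shared falls. Its medians were -0.29, -0.29 and -0.33 in the PEA, PEO and A2780 pairs. In vitro 7 of 16 members fell (43.8%, against 17.7% of all genes) and 1 rose. The interaction was lower for 4 members (25.0%, against 25.9% of all genes) and higher for 3.

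Falls of smaller lists included matrix and survival genes. Targets of YAP and TEAD, the effectors of the Hippo pathway, had shared falls of AXL, CCDC80, DOCK5, PTPN14 and TGFB2, of which AXL, CCDC80 and TGFB2 also fell in CP70. CCDC80, a matrix protein, measured 5.36, 5.14 and 5.19 in PEA1 and 2.00, 1.11 and 1.04 in PEA2, 8.37, 8.42 and 8.16 in PEO1 and 5.51, 5.89 and 5.85 in PEO4, and 4.30, 4.16 and 4.28 in A2780 and 1.75, 2.21 and 2.03 in CP70. In the TGF-beta and BMP list ID3, SMAD1, TGFB2 and TGIF1 were shared falls, 4 of 36 (11.1%). ID3, an inhibitor of differentiation factors, was at least 27.7-fold lower in PEA2 with a log2FC of -0.87 (SE 0.22, FDR 0.0031) in the PEO pair. The BCL2 family had 3 shared falls of 18 (16.7%), BCL2, BMF and BOK. BCL2, which holds back cell death, measured 4.65, 4.62 and 4.47 in PEA1 and -0.32, 0.66 and -0.54 in PEA2, 2.59, 3.01 and 2.87 in PEO1 and 1.38, 0.59 and 2.22 in PEO4, and 2.89, 3.49 and 2.97 in A2780 and 4.12, 3.69 and 3.89 in CP70, while BMF and BOK promote death. Platinum uptake and ABC efflux transporters had 4 of 26 (15.4%), ABCA1, ABCA3, ABCB8 and LRRC8D. LRRC8D, a subunit of volume-regulated channels through which platinum drugs can enter, had log2FC of -1.22 (SE 0.15, FDR 9.65e-07), -0.43 (SE 0.15, FDR 0.0307) and 1.14 (SE 0.15, FDR 4.29e-06) in the PEA, PEO and A2780 pairs. ABCA3, a lipid transporter, had -1.67, -4.06 and 1.51.

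DUSP6, a phosphatase that is raised by ERK and turns it off, measured 5.43, 5.65 and 5.24 in PEA1 and 6.60, 6.54 and 6.59 in PEA2, 3.58, 3.71 and 3.69 in PEO1 and 4.90, 4.64 and 4.57 in PEO4, and 8.41, 8.49 and 8.46 in A2780 and 6.26, 6.37 and 6.37 in CP70. DUSP6 had log2FC of 1.14 (SE 0.11, FDR 4.96e-08), 1.05 (SE 0.11, FDR 4.1e-07) and -2.12 (SE 0.11, FDR 6.27e-12) in the PEA, PEO and A2780 pairs, and PEA minus PEO was 0.091 (SE 0.16, FDR 0.65). MAML3, a Notch coactivator that overlaps MGST2 on the other strand, was at least 33.5-fold lower in CP70, which held no reads, and had log2FC of 1.18 (SE 0.36, FDR 0.0119) in the PEO pair. LIN28B, which blocks let-7 processing, was at least 4.65-fold higher in PEA2, overlapped between PEO1 and PEO4 libraries, and fell in CP70 with a log2FC of -1.87 (SE 0.48, FDR 0.00353). SERPINE2, a protease inhibitor, had log2FC of -1.23 and -1.60 in the clinical pairs and was at least 72.2-fold higher in CP70. CSF1, the macrophage growth factor, had log2FC of -1.96 (SE 0.26, FDR 2.11e-06), -3.10 (SE 0.26, FDR 1.19e-08) and 3.97 (SE 0.26, FDR 1.22e-10) in the PEA, PEO and A2780 pairs. In the Fanconi anemia and homologous recombination list 3 of 46 rose, CHEK2, FANCD2 and RAD50, and 4 fell, FAN1, GEN1, RMI2 and RPA1, that is 6.52% and 8.70% against 4.30% and 5.10% over all genes. CHEK2, a checkpoint kinase, had log2FC of 1.95 (SE 0.20, FDR 5.73e-08), 0.86 (SE 0.20, FDR 0.00163) and -0.96 (SE 0.20, FDR 0.000594).

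Other lists had a high interaction with at most 1 shared gene. Targets of p53 had 19 of 29 members with a higher interaction, against 25.0% of all genes, and 1, PHLDA3, with a lower one, and a median of 1.22. The median was -0.86 in the A2780 pair against 0.059 and -0.12 in the PEA and PEO pairs. In vitro 22 of 29 fell (75.9%, against 17.7% of all genes), and 17 of the 19 were among them. CDKN1A, the cell cycle inhibitor p21, was the only shared rise, at 3.06, 4.18 and 3.33 in PEA1 and 4.81, 4.15 and 4.77 in PEA2, 1.08, 1.42 and 1.40 in PEO1 and 3.35, 2.70 and 1.60 in PEO4, and 6.58, 6.19 and 6.51 in A2780 and 2.00, 2.13 and 1.72 in CP70. The PEA1 and PEA2 libraries overlapped for CDKN1A. GDF15, a secreted stress factor, had log2FC of -5.03 (SE 0.66, FDR 3.19e-06) in vitro and 5.94 (SE 0.66, FDR 1.87e-07) in the PEA pair, and was at the floor in PEO1 and PEO4. Cytosolic ribosomal proteins had 31 of 73 with a higher interaction, RPS24 as the 1 shared rise and 32 that fell in vitro, with medians of -0.43 in the A2780 pair and 0.050 and 0.043 in the PEA and PEO pairs. Nucleotide excision repair had 15 of 29 with a higher interaction and none shared, since 14 rose for the PEA lines and 2 for the PEO lines.

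In further lists the medians of the clinical pairs differed. Epithelial adhesion and polarity genes had a median of 4.09 in the PEA pair, where 39 of 40 rose against 32.5% of all genes, and -0.13 in the PEO pair, where 2 rose against 19.6%. None was shared, although 24 of 40 had a higher interaction against 25.0% of all genes. Targets of NF-kB and chemokines had medians of 2.69, -0.36 and 0.12 in the PEA, PEO and A2780 pairs, with 0 shared rises of 36. Targets of ATF4 with the aminoacyl-tRNA synthetases had 0.85, -0.48 and -0.35 and no shared gene. HOX cluster genes had 0.46, -2.51 and 1.81 and a median interaction of -3.80, with HOXB2 a shared rise and HOXB5 and HOXC10 shared falls. HOXC10 was at the floor in both PEA1 and PEA2, so its PEA change rests on the added reads. Antigen presentation had medians of -0.092, 0.79 and 0.68 and 1 shared fall, CD74, the invariant chain of class II molecules. Proteasome subunits had 13 of 31 with a lower interaction, against 25.9% of all genes, and no shared gene. In vitro 19 of the 31 rose, against 22.2% of all genes.

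The remaining 22 lists had up to 3 shared rises and up to 4 shared falls each, and many of their shares exceeded the 4.30% and 5.10% over all genes. No share in either direction exceeded 15.0%. The Notch pathway had 3 rises and 2 falls of 20 (15.0% and 10.0%), and retinoid metabolism 3 rises of 20 (15.0%). Laminins and basement membrane had 3 rises and 1 fall of 21 (14.3% and 4.76%), and mesenchymal state genes 2 rises and 4 falls of 32 (6.25% and 12.5%). There were 2 rises and no fall in ERK output and feedback (10.5% of 19), G1 cyclins and CDK inhibitors (11.1% of 18) and the IGF axis (11.1% of 18). The same held for cholesterol synthesis (8.70% of 23), stem-like state markers (14.3% of 14), and steroid receptors and estrogen targets (14.3% of 14). The Wnt pathway and the glutathione and NRF2 list had 2 of each, the contractile cytoskeleton 2 rises and 3 falls, and matrix proteases 2 rises and 1 fall. Collagens and translesion synthesis had 1 rise and 2 falls each, of 30 (3.33% and 6.67%) and of 18 (5.56% and 11.1%). AP-1, integrin subunits, and serine and one-carbon metabolism had 1 of each, lysosome and autophagy 1 rise, and fatty acid synthesis and metallothioneins 1 fall each.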

How the data were processed

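RNA was depleted of ribosomal RNA and sequenced from directional libraries. Per the labels and the submitters' processing notes, the authors used Bowtie2, featureCounts on UCSC genes of hg19 and limma. The strand setting of counting is not given in the sources used here. The authors deposited log2 values for 12853 genes: CPM of scaled library sizes, with 0.5 reads added. Every value gave back a whole read count within 0.01 reads or 0.01% of the count. These reads set the floors, of 3 reads, and were used for voom weights.

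From the log2 values, 1 limma fit (limma 3.58.1 in R 4.3.3, with trend) gave a mean to each of 6 lines and all contrasts. FDR values are Benjamini-Hochberg adjusted over the 12853 genes, and thresholds are FDR 0.05 and a log2FC beyond 2. The script was tested on simulated data. Lists and members were chosen with earlier results of these data known, so their counts have no test. The genes named were the largest of each class by their smallest change, up to 8 (opposite), 6 (within 2-fold) and 3 (not detected) in each direction, the 3 highest and 3 lowest interactions, and shared members of lists with the largest interaction. A few further list members were named after their values were seen. Of the gene identifiers, 12642 matched the GRCh37 annotation. Between replicates of a line, chi-square per degree of freedom over genes was 1.74 to 13.5, above 1 for every pair, so no library was counted as a repeat. Alternatives were another threshold, a filter, quantile normalization, voom weights, no trend, 2 reads added, a replicate block, pairs as replicates, leaving out each library and unscaled library sizes. A few results are not reported here.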

Additional observations from a re-analysis of the deposited data

Results flagged for a closer look

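The contrast itself is a difference between pairs under the same comparison, and 799 genes were higher and 1007 lower in it. Within these, the 2 clinical pairs also differed from each other at FDR below 0.05 by limma for 558 and 678 genes. Among the shared clinical genes the size of the change differed between the PEA and PEO pairs for 28 of 53 rises and 30 of 58 falls. Groups of 3 libraries were not tested for outlying samples.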

How the results depend on the processing

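With a log2 threshold of 1, the interaction was higher for 1786 genes and lower for 2044, shared rises and falls numbered 169 and 211, and opposite genes 31 and 77. With 2 reads added the shared rises and falls numbered 36 and 42, of which 35 and 39 were also shared with 0.5 reads added. The opposite genes numbered 5 and 11 at that setting. Asking for a log2FC beyond 2 in vitro, with 0.5 reads added, left 5 opposite rises. Quantile normalization gave 71 and 79 shared rises and falls, of which 46 and 54 were also shared without it. With pairs as replicates 0 genes passed in either direction by limma, where 260 and 390 had an unadjusted p below 0.05 beyond 2. Unscaled library sizes, added after seeing the data, gave 4 shared hypoxia genes in place of 7 and 17 shared interferon-stimulated genes in place of 21. The mitosis and replication lists had 8 shared falls each at that setting, against 8 and 7. Leaving out 1 library at a time gave 783 to 846 and 992 to 1046 interaction genes, 50 to 57 and 54 to 62 shared genes, 7 to 11 and 15 to 22 opposite genes, 18 to 21 interferon-stimulated, 5 to 7 hypoxia, 7 to 8 mitosis and 4 to 9 replication genes. A replicate block gave 801 and 1007 interaction genes, with 53 and 57 shared genes in common with the fit without it. It gave 20 shared interferon-stimulated genes in place of 21. With the replicate block, the interaction of the 45 named genes followed kept its direction and side of FDR 0.05. The genes followed were those named by class or interaction and the leading shared members of the interferon, hypoxia, mitosis and replication lists. Other genes named in the text were not followed. Deviations of same-numbered libraries from their line means had correlations of -0.184 to 0.220 within the pairs, over genes above the median level. With 3 libraries per line, and no check across pairs, this cannot settle whether the numbers pair them. Of 1169 interaction values of 45 named genes, 1124 kept their direction and their side of FDR 0.05. Another 45 lost the call, all with pairs as replicates, and 0 reversed. These genes were named for large changes in the same data. The size threshold, the calls in each pair and the in vitro class were not part of this count. Of 968 list medians 175 moved by more than the replicate spread, and 9 lists changed the sign of their median interaction: AP-1, TGF-beta and BMP, cholesterol synthesis, contractile cytoskeleton, glutathione and NRF2, replication and S phase, retinoid metabolism, stem-like markers and translesion synthesis. The causes were not tested.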
